A study of Homo sapiens with 42 samples.

Results

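The 5 anti-apoptotic genes of the BCL2 family, BCL2, BCL2L1, BCL2L2, MCL1 and BCL2A1, were read on all probe sets of the Affymetrix U133 Plus 2 array annotated to 1 of them alone, out of 19775 genes with such a probe set. There were 17 such probe sets among the 54675 of the array: 4 for BCL2, 4 for BCL2L1, 2 for BCL2L2, 6 for MCL1 and 1 for BCL2A1. A further probe set carried a member symbol together with another symbol and was not used. The arrays measured messenger RNA in RPMI-8226, an established human cell line of multiple myeloma, the malignancy of plasma cells, with 1 array per RNA sample. The question for these genes was which of them each derived line expressed and whether inducing a hairpin that targets BMI1, a core protein of the Polycomb repressor PRC1, changed them.

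The BMI1-shRNA line carried an inducible hairpin against BMI1 and was profiled at 24, 32 and 48 h with 100 ng/ml doxycycline, at the same times without it, and at 0 h without it. The control-shRNA line carried an inducible control hairpin and was profiled under the same conditions, which gave 14 groups of 3 arrays, 21 arrays per line. All cells were stably infected RPMI-8226 kept in a medium with 1% FBS, each hairpin was represented by a single derived line, and no parental cells were among the arrays analysed. Hairpin and line therefore cannot be told apart without doxycycline. Replicates were numbered with no statement that they came from separate cultures, so p-values measure the spread between arrays, which may be technical. At 0 h, the arrays of the BMI1-shRNA line had conflicting labels: the title gives no doxycycline, another field gives doxycycline, and the source field names the control line. They were grouped by the title and kept out of every comparison averaged over 24, 32 and 48 h.

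The anti-apoptotic BCL2 proteins keep a cell alive by binding the killer and sensor members of the same family, such as BAX, BAK1 and BCL2L11 (BIM), and so prevent the mitochondrial outer membrane from being opened. The 5 members differ in which sensors they hold and in how long they last: MCL1 protein turns over rapidly, while BCL2 and BCL-XL, the long product of BCL2L1, are stable. Plasma cells and many myelomas depend on MCL1, and BCL2A1 is a target of NF-kB in lymphoid cells. The arrays measured RNA, and protein was not measured.

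RefSeq promoter windows, from 250 bases before to 50 after a transcription start on GRCh38.p14, were on hand for 3 of the 5 members. All members with a window are shown, which leaves out MCL1 and BCL2L2, and a link of the windows to the line differences was not tested. All 4 windows lie on the minus strand: BCL2A1 at chr15:79971147-79971446, BCL2 at chr18:63319720-63320019, and BCL2L1 at chr20:31723914-31724213 and at chr20:31722819-31723118, the downstream of its windows. Capitals mark matches to the motifs searched, on either strand.
BCL2A1: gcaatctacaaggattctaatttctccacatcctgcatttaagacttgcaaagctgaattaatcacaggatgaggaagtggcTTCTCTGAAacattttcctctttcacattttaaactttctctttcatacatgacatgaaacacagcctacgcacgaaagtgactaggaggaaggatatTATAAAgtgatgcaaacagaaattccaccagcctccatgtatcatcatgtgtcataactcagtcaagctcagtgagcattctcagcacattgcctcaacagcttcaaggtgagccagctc
BCL2: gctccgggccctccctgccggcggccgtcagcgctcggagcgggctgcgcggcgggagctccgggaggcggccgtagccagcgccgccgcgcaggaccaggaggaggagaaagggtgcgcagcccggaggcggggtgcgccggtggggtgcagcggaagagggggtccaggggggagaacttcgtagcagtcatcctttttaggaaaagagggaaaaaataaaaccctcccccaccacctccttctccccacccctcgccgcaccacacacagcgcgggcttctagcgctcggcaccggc
BCL2L1 upstream window: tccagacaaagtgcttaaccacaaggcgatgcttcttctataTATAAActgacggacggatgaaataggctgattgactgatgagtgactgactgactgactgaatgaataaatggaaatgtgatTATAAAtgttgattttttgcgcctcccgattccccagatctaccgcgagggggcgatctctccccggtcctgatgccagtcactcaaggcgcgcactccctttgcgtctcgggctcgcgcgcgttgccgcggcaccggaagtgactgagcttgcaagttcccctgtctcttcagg
BCL2L1 downstream window: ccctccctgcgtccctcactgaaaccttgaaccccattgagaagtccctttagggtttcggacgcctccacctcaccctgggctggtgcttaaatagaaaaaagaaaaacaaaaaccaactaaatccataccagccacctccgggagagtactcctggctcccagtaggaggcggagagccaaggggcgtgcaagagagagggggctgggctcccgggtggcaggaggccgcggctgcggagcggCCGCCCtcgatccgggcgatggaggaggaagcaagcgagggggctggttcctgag

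The BCL2A1 window was poor in G and C, at 41.0%, with 13.0% of the 35116 RefSeq windows lower, and it held 2 CpG dinucleotides. The BCL2 window was at the other end, with a G and C content of 70.7% (81.2% of windows lower) and 31 CpG dinucleotides, against medians of 58.67% and 14 over all windows. The BCL2L1 windows lay between, with 52.0% and 20 CpG dinucleotides upstream and 61.3% and 16 downstream. A TATA box core, TATAAA, began 70 bases before the start in BCL2A1 and 208 and 125 bases before it in the upstream BCL2L1 window. It occurs in 11.5% of all windows. The STAT motif TTCNNNGAA began 168 bases before the BCL2A1 start and occurs in 7.66% of windows. A GC box, GGGCGG, was matched on the opposite strand of the downstream BCL2L1 window, beginning 5 bases before the start, and occurs in 45.0% of windows. The NF-kB consensus, present in 11.3% of windows, was not matched in these 4, and the BCL2 window matched none of the 4 motifs. No match overlapped another.

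Values are MAS5 signals, linear intensities that the authors' processing had scaled to a common mean on every array. Signals of different probe sets are not comparable as levels, so a probe set is set only against itself in other arrays and against the median of its own array, which was 16.0 to 22.5. To be tested, a probe set had to reach that median on 3 or more of the 42 arrays. This kept 35232 probe sets in all and 16 of the 17 members. The exception, MCL1 probe set 227175_at, read 1.4 to 20.7 and reached the median on 2 arrays. BCL2A1 passed through the control-shRNA arrays alone, so it could not have been tested had both lines been low. Log2 values were taken after adding 5.4, and a probe set was called at a limma adjusted p under 0.05 over all those tested. Counts of members with an unadjusted limma p under 0.05 are also given. The share of all probe sets at that threshold was not counted, so these counts show no excess. Several IDs end in _s_at or _x_at, which marks probes that can match more than 1 transcript.

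Plasma cell markers were high in both lines, with 7 of 9 at or above the median on every array and summed signals of 10847.9 to 12797.5 in the BMI1-shRNA line and 10887.9 to 13327.9 in the control-shRNA line. SLAMF7 was below the median on every array, and CD27 reached it on 6 of 42. CD38 differed between the lines, with medians of 507.5 in the BMI1-shRNA line and 232.0 in the control-shRNA line. Of the 5 epithelial markers, 4 were also at or above the median on every array. Markers of T cells (CD3D, CD3E, CD3G, CD2) summed to 17.0 to 69.8 in the BMI1-shRNA line and 20.4 to 65.7 in the control-shRNA line. Of the 4 monocyte markers, CD14, LYZ and FCGR1A were below the median on every array, and CSF1R reached it on 30 of 42, with median signals of 27.0 in the BMI1-shRNA line and 18.8 in the control-shRNA line. BMI1, whose probe set is shared with the readthrough transcript COMMD3-BMI1, read 139.8 to 234.0 on the 9 dosed arrays of the BMI1-shRNA line and 758.3 to 1128.8 on its 9 undosed ones. That is a log2 change of -2.43 ± 0.06 (SE).

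The 2 lines expressed different amounts of the survival genes, and 1 member probe set was called with doxycycline in either line. BCL2A1 was below the array median throughout the BMI1-shRNA line and above the array median throughout the control-shRNA line. BCL2 and BCL2L1 were higher in the undosed BMI1-shRNA line on all their probe sets, and 3 of the 5 tested MCL1 probe sets were lower. Over the mean of 24, 32 and 48 h without doxycycline, 13 of 16 member probe sets were called between the lines, against 35.1% of all probe sets. Of these, 8 were higher in the BMI1-shRNA line, where 17% of all probe sets were called higher, and 5 were lower, against 18.1%. All 5 genes were called on their brightest probe set, as 42.7% of all genes were, and BCL2A1 was tested by way of the filter just described. Probe sets of 1 gene can read the same transcript, so the 13 are not 13 separate results. The median log2 difference was 0.25 over the 16 member probe sets, 8 of which read BCL2 or BCL2L1, and -0.0011 over all probe sets. With 1 mean of the probe sets per gene, BCL2 (0.68) and BCL2L1 (0.74) were higher in the BMI1-shRNA line. BCL2L2 (-0.19, not called), MCL1 (-0.34) and BCL2A1 (-2.99) were lower, so the family did not move in 1 direction.

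**Figure D1:**
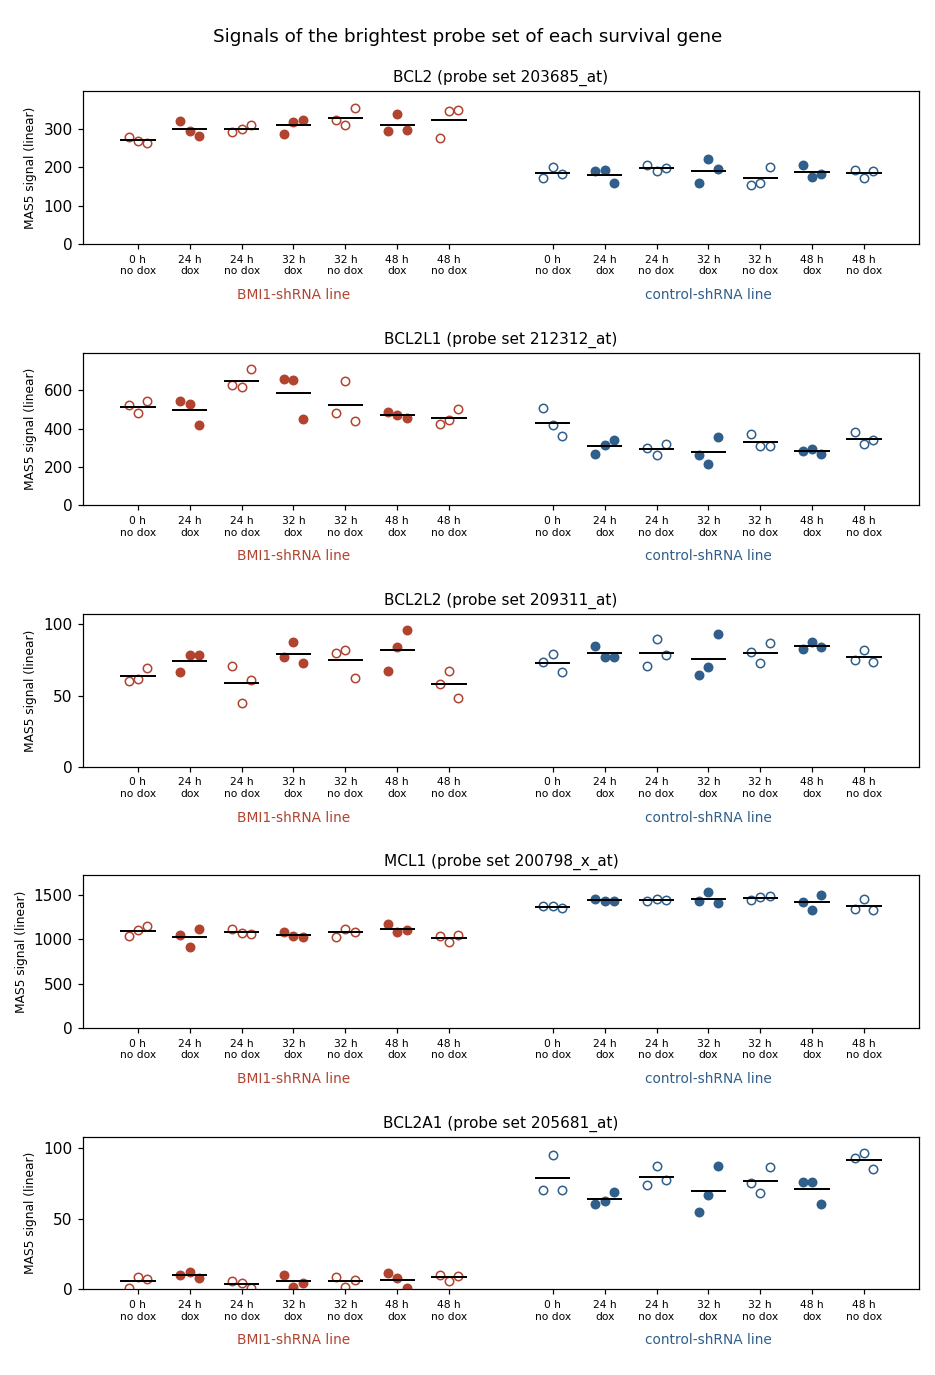
MAS5 signal (vertical axis, linear, starting at 0) of the brightest probe set of each of the 5 genes on every array, by line, hours and doxycycline (dox; filled circles dosed, open circles undosed). Black bars are means of 3 arrays; BCL2A1 read 1.0 to 12.7 in the BMI1-shRNA line and 54.8 to 96.5 in the control-shRNA line, while dosed and undosed circles of a line lie at similar heights for BCL2 and MCL1.

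BCL2A1, the short-lived family member best known from activated lymphoid and myeloid cells, was below the array median in one line and above it in the other. Its probe set 205681_at read 6.1, 4.5 and 1.0 at 24 h, 8.9, 1.7 and 6.7 at 32 h and 10.6, 6.2 and 9.2 at 48 h in the undosed BMI1-shRNA line. In the undosed control-shRNA line it read 74.0, 87.4 and 77.8 at 24 h, 75.4, 68.0 and 86.7 at 32 h and 92.9, 96.5 and 85.5 at 48 h. None of the 21 arrays of the BMI1-shRNA line reached the array median and all 21 of the control-shRNA line did. The probe set was tested only because the control-shRNA arrays reached the median, so its call is given as a description. The log2 difference was -2.99 with 5.4 added, and its size rests on that constant: it was -3.74 with 1 added and -2.03 with 18.8, the median of all values. The table holds no detection calls, so the BMI1-shRNA signals cannot be told from background.

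BCL2, the founding member of the family and the target of venetoclax, was higher in the BMI1-shRNA line. Its brightest probe set, 203685_at, had a lowest, median and highest signal of 276.0, 310.1 and 355.3 on the 9 undosed BMI1-shRNA arrays and 155.0, 190.5 and 207.0 on the 9 undosed control-shRNA arrays. The ranges did not overlap, as on 7 of the 16 member probe sets and 11.9% of all probe sets over these 9 and 9 arrays. Among the 7 is BCL2A1, which was tested through the control-shRNA arrays alone. The BCL2 means were 318 ± 27.9 in the BMI1-shRNA line and 185 ± 18.6 in the control-shRNA line (SD, n = 9 each). The log2 difference was 0.76 ± 0.06 (SE; limma adjusted p = 2.42e-13), a fold of 1.70. The dimmer probe sets went the same way, by 0.71 ± 0.13 for 203684_s_at, 0.59 ± 0.19 for 207005_s_at and 0.66 ± 0.24 for 207004_at, all called. Their ranges overlapped between the lines, as with 39.2 to 61.0 in the undosed BMI1-shRNA line and 15.9 to 43.5 in the undosed control-shRNA line for 203684_s_at. Signals of 207005_s_at and 207004_at sat near the array median in both lines.

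BCL2L1 encodes BCL-XL, which guards the mitochondrial membrane in most cell types, and BCL-XS, a shorter splice product that promotes death. The probe sets were not assigned to these isoforms here. Probe set 212312_at read 422.4, 503.3 and 710.0 (lowest, median and highest) on the 9 undosed BMI1-shRNA arrays and 263.3, 320.2 and 381.3 on the 9 undosed control-shRNA arrays. On 215037_s_at the corresponding signals were 224.5, 293.1 and 331.7 in the BMI1-shRNA line and 157.9, 190.9 and 215.3 in the control-shRNA line. Neither pair of ranges overlapped. The log2 differences were 0.72 ± 0.08 and 0.59 ± 0.07 (SE; limma adjusted p = 4.73e-09 and 1.63e-09). Probe set 206665_s_at differed by 0.72 ± 0.08 and 231228_at by 0.94 ± 0.26, both called. The last was dim, with undosed signals of 18.4 to 63.8 in the BMI1-shRNA line and 6.0 to 35.9 in the control-shRNA line.

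MCL1, a survival factor of plasma cells, was lower in the BMI1-shRNA line by a small margin. Probe set 200798_x_at read 963.6, 1053.1 and 1117.7 (lowest, median and highest) on the 9 undosed BMI1-shRNA arrays and 1327.7, 1440.8 and 1479.8 on the 9 undosed control-shRNA arrays. Its ranges did not overlap, and the log2 difference was -0.43 ± 0.03 (SE; limma adjusted p = 2.23e-13). Probe set 200797_s_at had 726.4 to 847.2 in the undosed BMI1-shRNA line and 852.2 to 1181.4 in the undosed control-shRNA line, a difference of -0.38 ± 0.06, and 200796_s_at differed by -0.34 ± 0.08, both called. The remaining tested probe sets, 214056_at at -0.27 ± 0.11 and 214057_at at -0.29 ± 0.13, were not called (limma adjusted p = 0.0548 and 0.0870). The MCL1 gene makes a long, protective form and shorter splice forms, which were not separated here.

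BCL2L2 encodes BCL-W, a less studied survival protein with a role in sperm development in mice. Its probe set 209311_at read 44.9, 62.1 and 82.1 on the 9 undosed BMI1-shRNA arrays (lowest, median and highest) and 70.7, 78.2 and 90.0 on the 9 undosed control-shRNA arrays. The ranges overlapped, and the log2 difference was -0.30 ± 0.09 (SE; limma adjusted p = 0.00503). The other probe set, 1555140_a_at, differed by -0.09 ± 0.17, with a 95% confidence interval of -0.43 to 0.26, and was not called. The mean of both probe sets differed by -0.19 ± 0.10, which did not pass the test (limma adjusted p = 0.124).

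**Figure D2:**
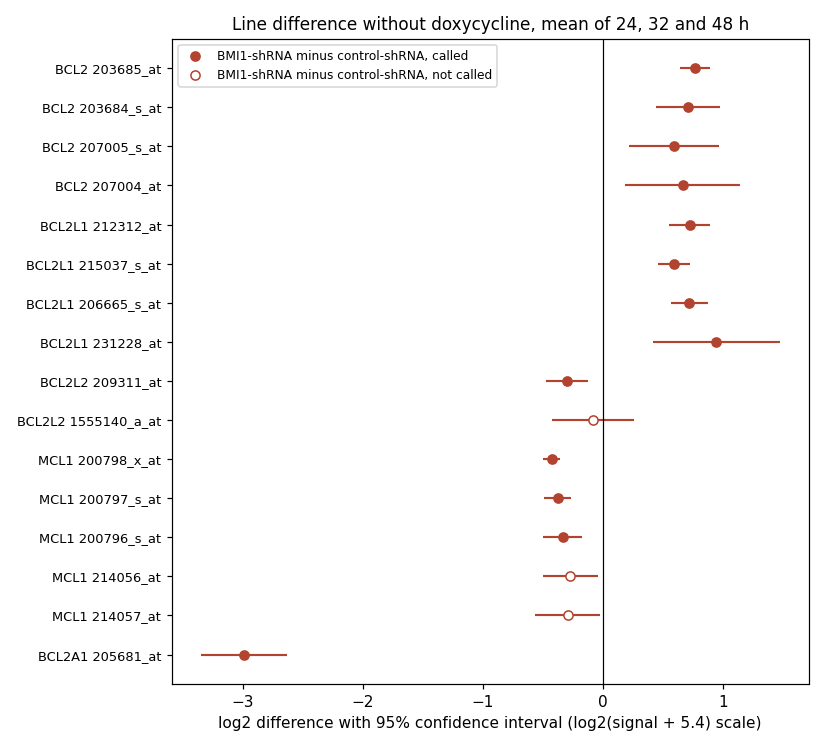
Log2 difference of the undosed BMI1-shRNA line minus the undosed control-shRNA line over the mean of 24, 32 and 48 h (horizontal axis) for the 16 tested probe sets, with 95% confidence intervals; filled circles were called. The 8 probe sets of BCL2 and BCL2L1 lie right of 0, those of MCL1, BCL2L2 and BCL2A1 left of 0, and BCL2A1 is at -2.99, a size that rests on the constant added before the logarithm.

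With dosed and undosed arrays together, 4 of the 16 probe sets had no overlap between the 21 BMI1-shRNA and the 21 control-shRNA arrays, against 6.61% of all probe sets. BCL2 203685_at (264.5 to 355.3 in the BMI1-shRNA line and 155.0 to 220.8 in the control-shRNA line) and BCL2L1 206665_s_at (200.8 to 378.3 in the BMI1-shRNA line and 122.8 to 189.3 in the control-shRNA line) lay above. MCL1 200798_x_at (909.5 to 1171.1 in the BMI1-shRNA line and 1323.4 to 1530.8 in the control-shRNA line) and BCL2A1 205681_at lay below. BCL2A1 was tested only because the control-shRNA arrays reached the array median, so its place among the 4 is a description. The count was also 4 once the BMI1-shRNA arrays of 0 h were left out, against 7.08% of all probe sets. BCL2L1 215037_s_at missed by a narrow margin, with a lowest BMI1-shRNA signal of 214.5 and a highest control-shRNA signal of 215.3.

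The line difference of BCL2L1 was also read at single times. On 212312_at it was 0.27 at 0 h, 1.13 at 24 h, 0.64 at 32 h and 0.38 at 48 h, each ± 0.15 (SE), and it was called at 24 and 32 h. The undosed BMI1-shRNA line averaged 514, 651, 524 and 456 over these times, and the undosed control-shRNA line 429, 294, 330 and 348 (n = 3 each). The 0 h group of the control-shRNA line, at 509.1, 416.7 and 360.6, had the highest of these control means. The difference at 48 h minus that at 24 h was -0.75 ± 0.21 (SE), a contrast added after the data were seen, and it did not pass the test (limma adjusted p = 0.369), where no probe set of the array did (0%); 2 member probe sets had an unadjusted p under 0.05. The 6 probe sets called between the lines at every time were BCL2A1 205681_at, BCL2 203685_at, BCL2L1 215037_s_at and 206665_s_at, and MCL1 200798_x_at and 200797_s_at, where 10.7% of all probe sets were called at every time. BCL2A1, tested through the control-shRNA arrays alone, is in this count and in those at single times. At single times 6 of 16 member probe sets were called at 0 h, where 20.9% of all were, 10 at 24 h (21.8%), 8 at 32 h (20.1%) and 8 at 48 h (19.8%). The count at 0 h rests on the arrays with conflicting labels. On these, BCL2A1 read 1.2 to 8.9, where the control-shRNA line read 54.8 to 96.5. BMI1 read 1009.3 to 1069.4 on them and 139.8 to 234.0 on the dosed arrays of the BMI1-shRNA line. Which label holds was not tested.

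Other measures moved with the line. RNA quality, read as the signal of the 3-prime GAPDH control over that of its 5-prime control, was 0.935 ± 0.0251 in the BMI1-shRNA line and 1.03 ± 0.0401 in the control-shRNA line (SD, n = 21 each). The 4 mature B cell markers with a probe set summed to 160.7 to 249.8 in the BMI1-shRNA line and 64.9 to 130.1 in the control-shRNA line, with median MS4A1 signals of 107.3 in the BMI1-shRNA line and 17.2 in the control-shRNA line. BACH2 had medians of 36.9 in the BMI1-shRNA line and 20.3 in the control-shRNA line, PAX5 35.9 in the BMI1-shRNA line and 38.6 in the control-shRNA line, and CD22 13.9 in the BMI1-shRNA line and 17.7 in the control-shRNA line. The 5 epithelial markers summed to 5280.7 to 6585.9 in the BMI1-shRNA line and 4013.5 to 5587.6 in the control-shRNA line, with median CDH1 signals of 381.3 in the BMI1-shRNA line and 44.9 in the control-shRNA line. EPCAM, with medians of 3509.9 in the BMI1-shRNA line and 3037.6 in the control-shRNA line, made up most of these sums with KRT18. The KRT18 medians were 2271.1 in the BMI1-shRNA line and 1604.9 in the control-shRNA line. KRT19 was below the array median on every array, and KRT8 had medians of 42.8 in the BMI1-shRNA line and 44.7 in the control-shRNA line. BMI1 itself was lower in the undosed BMI1-shRNA line, by a log2 difference of -0.32 ± 0.06 (SE). The part of these in the line differences of the survival genes was not tested.

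With the BMI1 hairpin induced, BCL2L2 was the single member with a called probe set, and BCL2, BCL2L1, MCL1 and BCL2A1 had none. Over the mean of 3 times 1 of 16 member probe sets was called in the BMI1-shRNA line, 209311_at, while 5.83% of all probe sets were. The median log2 change was -0.03 over the members and 0.03 over all probe sets, and 2 members had an unadjusted p under 0.05. At single times 0 of 16 members were called at 24 h, where 0.897% of all probe sets were, 0 at 32 h (1.38%) and 0 at 48 h (3.83%). The members with an unadjusted p under 0.05 numbered 5, 1 and 2 at these times, several of the 5 being probe sets of BCL2L1. The percentages above are shares at the adjusted threshold and are no measure for these counts.

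BCL2 203685_at had a lowest, median and highest signal of 281.6, 298.5 and 340.3 on the 9 dosed BMI1-shRNA arrays and 276.0, 310.1 and 355.3 on the 9 undosed ones, which overlapped throughout. Its log2 change was -0.05 ± 0.06 (SE), with a 95% confidence interval of -0.17 to 0.07. MCL1 200798_x_at read 909.5, 1074.3 and 1171.1 dosed and 963.6, 1053.1 and 1117.7 undosed, a change of 0.01 ± 0.03 with an interval of -0.06 to 0.07. Neither was called, and both intervals end well short of the differences between the lines. The other BCL2 and MCL1 probe sets had log2 fold changes of -0.34 to 0.06, and none was called. BCL2A1 averaged 7.72 ± 4.14 in dosed and 6.10 ± 3.28 in undosed BMI1-shRNA cells (SD, n = 9 each), all below the array median. At 24 h its dosed signals, 10.1, 12.7 and 8.1, lay above the undosed 6.1, 4.5 and 1.0, without passing the test (limma adjusted p = 0.330); 16.5% of all probe sets separated in this comparison in either direction. In the control-shRNA line at 24 h its signals separated the other way, at 60.5, 62.3 and 68.9 dosed and 74.0, 87.4 and 77.8 undosed, which was not called either (10.6% of all probe sets separated there).

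BCL2L2 209311_at was higher on average with doxycycline in the BMI1-shRNA line. At 24 h it read 66.7, 78.5 and 78.5 dosed and 70.9, 44.9 and 61.1 undosed. At 32 h it read 77.3, 87.7 and 73.1 dosed and 80.1, 82.1 and 62.1 undosed, and at 48 h 66.9, 84.0 and 95.7 dosed and 58.2, 67.1 and 48.4 undosed. Dosed and undosed signals overlapped at every time. The log2 change was 0.29 ± 0.09 (SE; 95% confidence interval 0.12 to 0.47; limma adjusted p = 0.0323), a fold of 1.23. The dosed BMI1-shRNA mean of 78.7 ± 9.45 lay near that of the undosed control-shRNA line, 78.8 ± 6.57 (SD, n = 9 each), and the undosed BMI1-shRNA mean was 63.9 ± 12.7. The rise with doxycycline and the line difference were both read against these same undosed BMI1-shRNA arrays, so they are not separate results. The second BCL2L2 probe set had a log2 fold change of 0.22 ± 0.17, which was not called.

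The BCL2L2 call ended after quantile normalization (limma adjusted p = 0.0673), in a fit of the groups compared alone (0.121) and for the mean of both probe sets (0.134). It also ended without single arrays of the BMI1-shRNA line. Without dosed arrays the adjusted p was 0.0643 and 0.0642 (24 h, replicates 2 and 3), 0.0756 (32 h, replicate 2), and 0.0572 and 0.0852 (48 h, replicates 2 and 3). Without undosed arrays it was 0.104 (24 h, replicate 2), 0.0946 (32 h, replicate 3) and 0.0845 (48 h, replicate 3).

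**Figure D3:**
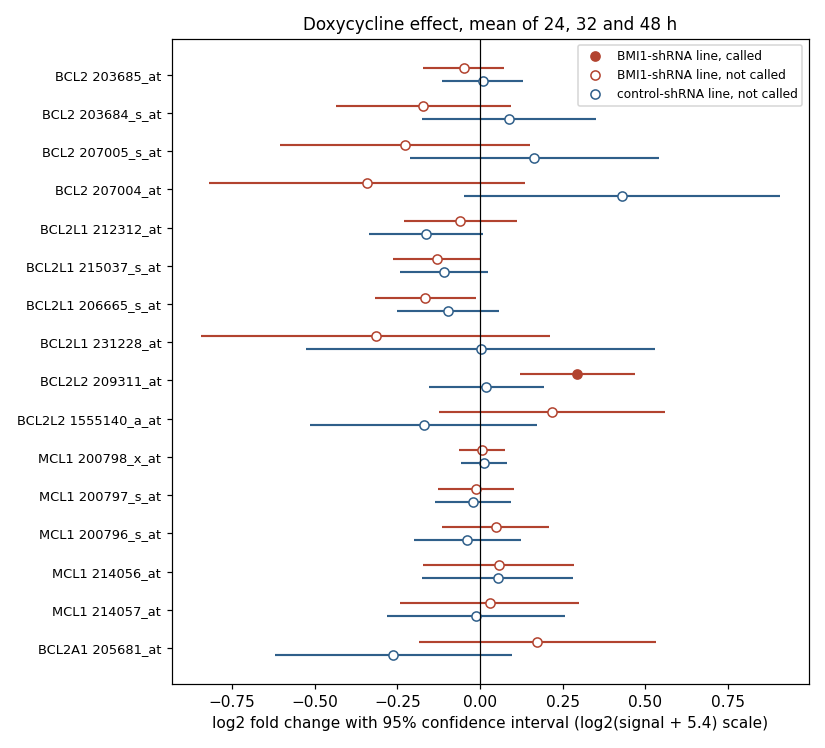
Log2 fold change with doxycycline over without it, mean of 24, 32 and 48 h (horizontal axis), for the 16 tested probe sets in the BMI1-shRNA line (upper point of each pair) and the control-shRNA line (lower point), with 95% confidence intervals. The single filled point, BCL2L2 209311_at in the BMI1-shRNA line at 0.29, was called; the others were not.

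At 24 h in the BMI1-shRNA line all 4 BCL2L1 probe sets had negative log2 fold changes with doxycycline, none of which passed the test. Probe set 212312_at read 545.5, 530.1 and 418.1 dosed and 625.8, 615.8 and 710.0 undosed. Probe set 206665_s_at read 216.6, 214.5 and 260.3 dosed and 293.0, 378.3 and 283.3 undosed. On these and on 215037_s_at the dosed arrays lay below the undosed ones, as 16.5% of all probe sets did in one direction or the other. The log2 changes were -0.39 ± 0.15 for 212312_at, -0.33 ± 0.11 for 215037_s_at, -0.45 ± 0.13 for 206665_s_at and -0.58 ± 0.45 for 231228_at (limma adjusted p = 0.107 to 0.754). The undosed 24 h arrays had the highest mean of the undosed BMI1-shRNA groups on 212312_at, as given above, and on 206665_s_at and 215037_s_at. At 0, 24, 32 and 48 h these undosed means were 275, 318, 282 and 222 on 206665_s_at. On 215037_s_at they were 306, 318, 295 and 242. The dim 231228_at was highest at 0 h instead (49.7, against 35.7 at 24 h).

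At 48 h the changes of the same 4 probe sets had the opposite sign, at 0.05, 0.12, 0.11 and 0.56, and none was called. The effect at 48 h minus that at 24 h was 0.44 ± 0.21, 0.45 ± 0.16, 0.56 ± 0.19 and 1.14 ± 0.64 (limma adjusted p = 0.268 to 0.666). This contrast was added after the data were seen, 0 of 16 member probe sets were called in it, and 0.275% of all were. An unadjusted p under 0.05 was held by 5 members, several of them BCL2L1 probe sets, with no share of all probe sets counted there. In the control-shRNA line at 24 h, 215037_s_at also read lower with doxycycline, at 144.2, 152.8 and 171.2 dosed and 215.3, 199.6 and 190.9 undosed, without overlap. That change, -0.36 ± 0.11, was not called either, and 212312_at had 0.06 ± 0.15 there. Over the mean of 3 times, BCL2L1 212312_at had a log2 fold change of -0.06 ± 0.08 in the BMI1-shRNA line (95% confidence interval -0.23 to 0.11).

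**Figure D4:**
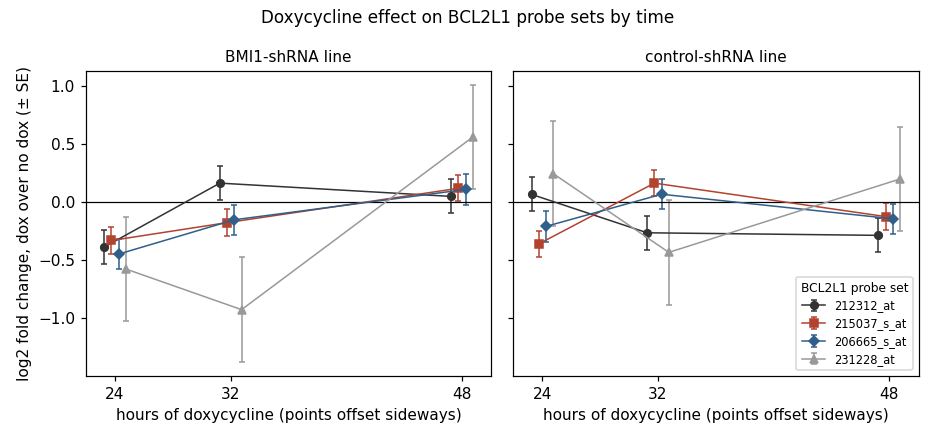
Log2 fold change of the 4 BCL2L1 probe sets with doxycycline over without it (vertical axis, ± SE) at 24, 32 and 48 h (horizontal axis) in the BMI1-shRNA line (left) and the control-shRNA line (right). In the BMI1-shRNA line all 4 are below 0 at 24 h, from -0.58 to -0.33, and above 0 at 48 h, from 0.05 to 0.56; none of these values was called.

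In the control-shRNA line doxycycline gave 0 of 16 called member probe sets over the mean of 3 times, where 0.071% of all probe sets were called, and 0 members had an unadjusted p under 0.05. BCL2 203685_at averaged 186 ± 20.6 dosed and 185 ± 18.6 undosed, and MCL1 200798_x_at 1435 ± 59.0 dosed and 1424 ± 55.1 undosed (SD, n = 9 each). BCL2A1 averaged 68.2 ± 10.2 dosed and 82.7 ± 9.42 undosed, a log2 change of -0.26 ± 0.18 that was not called (limma adjusted p = 0.911). No member was called at 24, 32 or 48 h, where 0.0142%, 0.00851% and 0.0114% of all probe sets were, and 1, 0 and 0 members had an unadjusted p under 0.05.

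The test of whether the BMI1 hairpin did more than doxycycline with a control hairpin subtracts the control-shRNA effect from the BMI1-shRNA effect. It called 0 of 16 member probe sets, against 2.53% of all, and 2 members had an unadjusted p under 0.05. BCL2L2 209311_at had a difference of effects of 0.28 ± 0.12 (limma adjusted p = 0.318), so its rise was not shown to differ from the effect with the control hairpin. The dimmest BCL2 probe set, 207004_at, had -0.77 ± 0.33 (limma adjusted p = 0.302), with mean signals of 18.8 dosed and 22.8 undosed in the BMI1-shRNA line and 19.4 dosed and 12.8 undosed in the control-shRNA line. For BCL2 203685_at the difference was -0.06 ± 0.09, for BCL2L1 212312_at 0.10 ± 0.12, for MCL1 200798_x_at -0.01 ± 0.05 and for BCL2A1 0.44 ± 0.25. The 95% confidence interval for the MCL1 probe set ran from -0.10 to 0.09 and for BCL2 203685_at from -0.23 to 0.12. At single times 0 members were called, against 0.219%, 0.565% and 1.65% of all probe sets at 24, 32 and 48 h, and 3, 2 and 0 members had an unadjusted p under 0.05.

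Without doxycycline, 48 h minus 0 h in culture called 0 of 16 member probe sets in the BMI1-shRNA line, where 2.53% of all were called, and 0 of 16 in the control-shRNA line, where 3.56% were. In the BMI1-shRNA line 5 members had an unadjusted p under 0.05, a threshold at which no share of all probe sets was counted. This comparison rests on the 0 h arrays with conflicting labels. BCL2L1 215037_s_at read 243.1, 258.6 and 224.5 at 48 h and 300.4, 277.8 and 340.8 at 0 h there, a log2 difference of -0.33 ± 0.11. BCL2 203685_at read 276.0, 346.7 and 350.0 at 48 h and 279.9, 269.0 and 264.5 at 0 h, a difference of 0.25 ± 0.10. Neither passed the test (limma adjusted p = 0.117 and 0.229). As the mean of its 4 probe sets, BCL2L1 was called in this comparison, at -0.44 ± 0.12 (limma adjusted p = 0.0406). In the control-shRNA line 0 members had an unadjusted p under 0.05.

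The partners of the survival proteins were read on the brightest tested probe set of each gene. Of 11 measured pro-apoptotic members, 1 rose and 1 fell in the BMI1-shRNA line with doxycycline, where 7.54% of all genes were called. BCL2L11, the BIM sensor that all 5 survival proteins can bind, averaged 998 dosed and 756 undosed (log2 change 0.39 ± 0.05), and BNIP3L, a mitophagy receptor, 504 dosed and 645 undosed (-0.35 ± 0.04). The same 2 genes were called in the difference of effects, where 3.31% of genes were. Between the undosed lines 5 of the 11 were higher in the BMI1-shRNA line and 2 lower, where 42.7% of genes were called. BNIP3L (0.53) and BCL2L11 (0.45) were among the higher, and BNIP3 (-0.80) and HRK (-0.61), a sensor that binds BCL-XL and here a dim probe set, were the lower. PMAIP1, or NOXA, the sensor that binds MCL1 and BCL2A1, averaged 707 in the undosed BMI1-shRNA line and 523 in the undosed control-shRNA line (0.43 ± 0.05). With the BMI1 hairpin it had a log2 fold change of 0.10 ± 0.05, which was not called.

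Among 9 measured genes chosen as regulators of MCL1 turnover or transcription, none was called with doxycycline in the BMI1-shRNA line, where 7.54% of all genes were. In the undosed BMI1-shRNA line 1 was higher and 2 were lower than in the undosed control-shRNA line, where 42.7% of all genes were called. USP13, a deubiquitinase of MCL1 and 1 of the 2 lower genes, averaged 455 in the BMI1-shRNA line and 629 in the control-shRNA line (-0.47 ± 0.06). The gene called higher and the other lower one are not named here. Of 14 measured transcription factors that act upstream of the members, 8 were higher and 4 lower in the undosed BMI1-shRNA line, against the same 42.7%. STAT5A, an activator of BCL2L1, averaged 99.7 in the undosed BMI1-shRNA line and 38.3 in the undosed control-shRNA line (1.28 ± 0.11). HIF1A was lower, at -0.80 ± 0.03, and with doxycycline in the BMI1-shRNA line it was the single factor called, at 0.21 ± 0.03. NFKB1 averaged 338 in the BMI1-shRNA line and 417 in the control-shRNA line (-0.30 ± 0.04). REL, another subunit of NF-kB, went the other way, at 171 in the BMI1-shRNA line and 131 in the control-shRNA line (0.36 ± 0.08).

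Downstream of the mitochondria, 1 of 8 measured genes of the apoptosome and caspases rose with doxycycline in the BMI1-shRNA line (CASP8, 0.18 ± 0.05) and 1 fell (DIABLO, -0.11 ± 0.03), where 7.54% of all genes were called. Between the undosed lines, where 42.7% of all genes were called, 5 were higher in the BMI1-shRNA line and 2 lower, with DFFA at 0.58 and CASP9 at 0.44 the largest. The 5 measured inhibitor of apoptosis proteins held 0 called genes with doxycycline in the BMI1-shRNA line, and XIAP (-0.16) and BIRC2 (-0.27) were lower in the undosed BMI1-shRNA line than in the undosed control-shRNA line. Of 4 measured remaining BCL2-homology genes, 0 were called with doxycycline in the BMI1-shRNA line and BCL2L13 was higher in the undosed BMI1-shRNA line (0.16 ± 0.06). None of these 6 lists held a called gene with doxycycline in the control-shRNA line, where 0.122% of all genes were called.

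The genes most like each member were named as the 2 with the highest value of the lower of the 2 Pearson correlations within the lines, over 21 arrays each. Arrays of a line share its conditions and the scaling of the array, so these are descriptions. BCL2 was most like FAM200B (r = 0.54 in the BMI1-shRNA line and 0.61 in the control-shRNA line) and GRINA (0.64 and 0.49). BCL2L1 was most like TXNRD1, a thioredoxin reductase (0.64 and 0.55), and METTL25 (0.53 and 0.53), and BCL2L2 most like CTDSP1 (0.61 and 0.68) and TNRC18 (0.58 and 0.60). MCL1 was most like SLC29A1, a nucleoside transporter (0.55 and 0.56), and RCC1L (0.51 and 0.67). BCL2A1 was most like SMAD6 (0.49 and 0.54) and RNF139 (0.48 and 0.48), with its BMI1-shRNA values near background. No member was among the genes most like another member.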

How the data were processed

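The 42 RNA samples of RPMI-8226 derivatives were each hybridized to an Affymetrix U133 Plus 2 array. The authors deposited linear intensity values, MAS5 signals per probe set, per the submitters' processing notes, which give no version. With 2% of values trimmed from either tail, array means were 150.02 to 150.03, a common target of scaling. Scaling of this kind shows changes relative to the other transcripts of an array. The number of arrays, 3 per group, limits the precision.

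The 62 array controls were left out. Of 54613 probe sets, 41091 were annotated to 1 gene symbol, 1801 to several and 11721 to none. Probe sets with at least 3 arrays at or above the array median were retained, 35232 in all. The deposited intensities were transformed to log2 after adding 5.4, the 25th percentile of all values, so fold changes of low signals are understated. Group means of the 14 groups were fitted in R 4.3.3 by limma 3.58.1 (eBayes with trend = TRUE after contrasts.fit; 28 residual and 8.41 prior degrees of freedom). Tests were two-sided, with Benjamini-Hochberg adjustment over the 35232 probe sets within each of 22 comparisons.

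All single-symbol probe sets of the 5 members are named; BMI1 is given as the check of the knockdown. From each of the 6 further lists, up to 4 called genes with the largest absolute log2 fold change in a comparison are named, on the brightest probe set; PMAIP1, NFKB1 and REL are given as well, chosen after their values were seen, as is the contrast of 48 h with 24 h. The members and lists were chosen with earlier results of these data known. Replicate numbers did not pair arrays: deviations from group means correlated at a mean r of 0.000986 for the same number and -0.000491 for different numbers.

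Alternatives were other pseudocounts, quantile normalization, other filters, 1 value per gene, no intensity trend, fewer groups in the fit, fits without the 0 h BMI1-shRNA arrays, a replicate block, and fits that each left out 1 array. Promoter motifs were searched on both strands.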

Additional observations from a re-analysis of the deposited data

How the results depend on the processing

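The count of member probe sets called between the undosed lines was 13, where 35.1% of all probe sets were called. It was 13 to 15 without single arrays (33.6% to 34.6% of all), 15 after quantile normalization (36.1%) and 14 in a fit of the groups compared alone (34.6%). With a filter at the 75th percentile it was 7, every member probe set that this filter retained, with BCL2A1 and BCL2L2 dropped. With 1 value for each gene it was 5 for the brightest probe set (43.9% of all genes) and 4 for the mean of the probe sets (41%). With the filter at the 75th percentile, 58.8% of all probe sets were called between the lines. The 15 among single arrays came without replicate 1 of the undosed 32 h control-shRNA arrays, when MCL1 214056_at (limma adjusted p = 0.0288) and 214057_at (0.0146) were called. MCL1 214056_at was also called without the undosed BMI1-shRNA replicates 1 (0.0444) and 2 (0.0394) of 32 h and 1 of 48 h (0.0390). The count for the BMI1 hairpin was 1, where 5.83% of all probe sets were called. It was 0 after quantile normalization (6.37% of all) and in a fit of the groups compared alone (4.81%). With the filter at the 75th percentile, which dropped BCL2L2 209311_at, it was 0 (15% of all). With the mean of the probe sets of a gene it was 0 (6.71% of all genes). It was 0 to 1 without single arrays, and the adjusted p of BCL2L2 209311_at ran from 0.0127 to 0.134 over 28 alternatives, 17 of which called it. The cause was not tested. For 48 h minus 0 h in the BMI1-shRNA line the count was 0, and 1 with the mean of the probe sets, BCL2L1, where 3.37% of all genes were called. The other 3 counts were 0 in every alternative run. With the replicate block the counts were 1 for the BMI1 hairpin (BCL2L2 209311_at, adjusted p = 0.0375) and 13 between the lines, and the block changed no call of a member; the numbers were not shown to pair the arrays.

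Sign changes were confined, among the values recomputed, to 6 effects near 0 that were never called. With the mean of the probe sets they were -0.0762 for BCL2L2 and -0.00157 for MCL1 with doxycycline in the control-shRNA line, and -0.0764 for BCL2L1 and 0.0263 for MCL1 in the difference of effects, where MCL1 was 0.00703 after quantile normalization. Without single arrays, doxycycline in the control-shRNA line gave -0.0281 to 0.0489 for BCL2 203685_at, -0.0303 to 0.0521 for BCL2L2 209311_at and -0.00359 to 0.0264 for MCL1 200798_x_at. The same MCL1 probe set gave -0.0153 to 0.0323 with the BMI1 hairpin and -0.0263 to 0.0213 in the difference of effects, and BCL2L1 212312_at 0.0502 to 0.166 there. Over the whole array, 48 h minus 0 h called 892 probe sets in the BMI1-shRNA line and 1255 in the control-shRNA line, against 327 and 265 in a fit of the groups compared alone, and doxycycline in the control-shRNA line 25 against 16. Without single arrays of 48 h or 0 h these time counts were 427 to 665 in the BMI1-shRNA line and 776 to 1639 in the control-shRNA line, and the doxycycline count was 16 to 26 without single arrays. With 1 mean per gene, 14704 genes were tested in place of 35232 probe sets, and 987 were called with the BMI1 hairpin against 2054 probe sets, 428 against 893 in the difference of effects and 6035 against 12362 between the lines. Time called 495 and 694 such means. With the brightest probe set per gene 1220, 554 and 6459 genes were called with the BMI1 hairpin, in the difference and between the lines, and 742 for time in the control-shRNA line. Low signals, above all BCL2A1 in the BMI1-shRNA line, limit what can be read from ratios, and protein, detection calls and splice forms were not measured.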
